A study of Mus musculus with 37 samples.

Results

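Bladders of mice given the bladder carcinogen BBN were compared with bladders of untreated mice, restricted to libraries made from intact RNA. BBN, N-butyl-N-(4-hydroxybutyl)nitrosamine, was given to female BALB/c mice, wild type by the labels, in drinking water at 0.05% from 6 to 7 weeks of age, and untreated female BALB/c mice received tap water. The labels give 18 weeks of BBN and the methods of the study 17 to 20 weeks. The 6 BBN bladders are those of mice 2, 5, 7, 8, 9 and 10, whose library names carry N and whose RNA integrity number (RIN, a measure of RNA degradation) is at least 5 in the sample sheet of the study, and the 3 untreated bladders are those of untreated mice 1 to 3. They make up 9 of the 37 mouse libraries of the series, the others being 24 ureters and 4 further BBN bladders, and each of the 9 comes from a different mouse. The sources used here do not spell out N for bladders and give no histology for single bladders. The same 6 BBN mice also gave ureter libraries, at least 1 of them from a cancerous ureter in each mouse.

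The bladder is lined by the urothelium, in which basal cells lie on the basement membrane, intermediate cells above them and large umbrella cells face the urine. Umbrella cells carry plaques of uroplakin proteins that seal the surface, while basal cells make keratins 5 and 14 and renew the layers after injury. BBN is oxidised in the liver, its metabolites are excreted in urine and damage DNA of the urothelium, and rodents given it for months develop carcinomas that often show squamous features. Under the urothelium lie a collagen-rich lamina propria and a thick coat of smooth muscle, the detrusor, so that each library mixes all of these tissues.

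Total counts of the 9 libraries ranged from 11150685 to 16617435 and gave p = 0.214 between the groups in an exact two-sided permutation test. The 10 most abundant genes took 5.17% to 6.84% of the counts in BBN bladders and 7.42% to 7.67% in untreated ones (p = 0.0238 in the same exact permutation test, which cannot give a smaller one with 6 against 3 libraries). Biological variation between libraries, as edgeR estimates it, was a coefficient of variation of 0.406 in the BBN bladders and 0.154 in the untreated ones. RIN ranges of the groups overlapped. Codes of the libraries in the sample sheet fall into 2 ranges. BBN 8, 9 and 10 lie in the second range, while BBN 2, 5 and 7 and all untreated bladders lie in the first, so no untreated bladder can be set beside the second range. Every uroplakin gene and the smooth muscle myosin gene Myh11 had counts in all 9 libraries, so lining and muscle of the bladder were present in each.

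Of 24421 gene symbols in the table, 15599 passed the filter on low counts and were tested with edgeR's quasi-likelihood test. A gene was called where its adjusted p was under 0.1 and its change at least 2-fold, the thresholds of the study, and an adjusted p is edgeR's over all 15599 genes, except where other libraries or another comparison are named, whose fits were filtered and adjusted on their own. The call was higher in BBN for 1884 genes (12.1% of those tested) and lower for 1601 (10.3%). Levels are given in CPM, the counts of a gene relative to the scaled total of its library, first for untreated 1, 2 and 3 in this order and then for the BBN bladders as lowest, highest and median. The CPM values of the 6 BBN bladders all lay above those of the 3 untreated bladders in 2947 genes (18.9%), and all below in 2876 (18.4%). Of the genes called, 1546 of the higher and 1484 of the lower had such separated groups, and this holds for every called gene named below unless an overlap is given. Of 162 genes named and called in the text, 133 were also called when the 3 BBN bladders labelled N with RIN under 5 were added. The calls lost then were those of Aldh1a3, Aldh3a1, Aqp3, Bcl3, Car12, Cd44, Cdkn1a, Cidea, Cldn7, Clu, Dab1, Elf3, Fabp4, Fgf1, Gli1, Kap, Krt5, Krt15, Ldha, Mbp, Msh6, Myc, Myh11, Pcna, Psmb8, Retnla, Rnase4, Shisa9 and Tnf. Large fitted changes were mostly increases, with 617 genes called at least 8-fold higher against 229 at least 8-fold lower, and 241 against 46 at 32-fold. Among all genes called higher, 45 had no count and 104 had 1 to 3 counts over the untreated bladders together. The fitted fold changes of those genes have no firm size. The median log2 fold change over all tested genes was 0.04, the value beside which medians of gene lists are to be read. In the plot of all tested genes Upk1a lies among the largest decreases, and Ltf, Krt4 and Krt14 stand out among the increases by their high level.

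**Figure D1:**
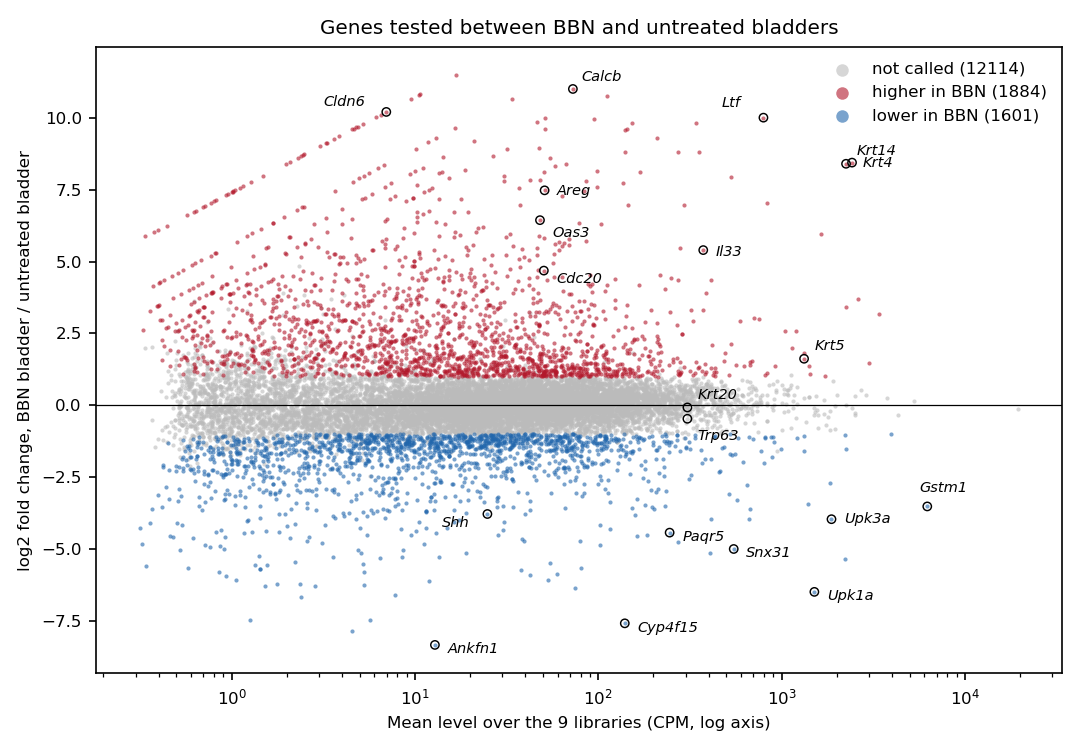
Each point is 1 of 15599 tested genes, with the mean level over the 9 libraries in CPM on a log axis and the log2 fold change of BBN over untreated bladders on the vertical axis. Red points are the 1884 genes called higher, blue the 1601 called lower and grey those not called, and genes described in the text are circled and named. Straight lines of red points at the upper left are genes with no or almost no counts in the untreated bladders, whose fitted fold changes have no firm size.

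All 5 uroplakin genes fell (100%, against 10.3% of all tested genes), each with every BBN bladder below every untreated one. Upk1a (chr7:30603092-30612847 in GRCm38), a tetraspanin of the umbrella cell plaque, was at 4547, 4297 and 4439 CPM in the untreated bladders and between 8.18 and 98.7 CPM (median 51.3) in the BBN bladders. BBN 10 was lowest, BBN 2 highest, and the groups lay far apart, with a log2 fold change of -6.502 ± 0.63 (SE, edgeR adjusted p = 5.49e-05). Upk2, the partner of Upk1a in the plaque, was at 1146, 1110.0 and 1190.0 CPM against 14.2 to 83.8 CPM (median 22.6). The log2 fold change was -5.16 ± 0.53 (SE, edgeR adjusted p = 7.73e-05), with BBN 9 the highest of the BBN bladders. Upk1b, the partner of Upk3a, was at 4213, 4332 and 4170.0 CPM in untreated and between 184 and 991 CPM (median 694) in BBN bladders, and changed least of the list at -2.72 ± 0.39 (SE, edgeR adjusted p = 0.0006). Upk3b had a log2 fold change of -3.59 ± 0.53 (SE, edgeR adjusted p = 0.000712), with all BBN values at or below 70.8 CPM against at least 358 CPM. Upk3a (chr15:85017141-85022547) was at 5105, 5151 and 4675 CPM in the untreated bladders and between 44.4 and 762 CPM (median 208) in the BBN bladders, a log2 fold change of -3.97 ± 0.88 (SE, edgeR adjusted p = 0.00662). Its BBN values fell into separate sets, from 44.4 to 54.7 CPM in BBN 2, 5 and 7 and from 360.4 to 762 CPM in BBN 8, 9 and 10, which are also the ranges of library codes. Within the first range alone its log2 fold change was -6.61 (edgeR adjusted p = 1.36e-05). With the code range as a covariate it was -6.62 (edgeR adjusted p = 6.3e-06), and a test between the ranges is given below. Because no untreated bladder lies in the second range, the covariate fit again sets only BBN 2, 5 and 7 against the untreated bladders. Here and wherever it is given below, it is therefore no second check beside the fit within the first range.

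Among 19 genes of luminal urothelium, 7 fell (36.8%, against 10.3% of all tested genes) and 2 rose (10.5%, against 12.1%), with a median log2 fold change of -0.62. Snx31, a sorting nexin of umbrella cells that binds uroplakin-carrying vesicles, fell from 1583, 1448 and 1612 CPM to between 19.1 and 96.8 CPM (median 36.1), with a log2 fold change of -5.01 ± 0.53 (SE, edgeR adjusted p = 9.68e-05). The transcription factors of luminal fate Pparg and Gata3 fell less. Pparg was at 193, 223 and 232 CPM against 38.5 to 74.8 CPM (median 56), and Gata3 at 590.4, 508 and 588 CPM against 153 to 266 CPM (median 179), with log2 fold changes of -1.903 ± 0.18 (SE, edgeR adjusted p = 4.6e-05) and -1.53 ± 0.18 (SE, edgeR adjusted p = 0.000193). For both the groups were separate. Tbx2, a T-box repressor, fell from 170.4, 117 and 136 CPM to between 17.04 and 51.6 CPM with a median of 28.2 (log2 fold change -2.14 ± 0.33 SE, edgeR adjusted p = 0.000847). Foxa1, a pioneer factor of the same programme, was not called and its groups overlapped, at 292, 195 and 228 CPM against 104 to 239 CPM (median 145). The 2 that rose were Krt13, given below with the other keratins of stratified epithelium, and Elf3. Elf3, an epithelial ETS factor, rose from 182, 205 and 256 CPM to between 435 and 858 CPM (median 589.9), a log2 fold change of 1.53 ± 0.27 (SE, edgeR adjusted p = 0.00206). Krt20, the keratin of mature umbrella cells, did not follow the uroplakins. It was at 341, 322 and 288 CPM in the untreated bladders and between 64.7 and 729 CPM in the BBN bladders, with BBN 8 and BBN 10 above every untreated bladder and the other 4 below. Its log2 fold change of -0.08 ± 0.76 (SE, edgeR adjusted p = 0.949) turned its sign when BBN 2, 7 or 9 was left out (0.13, 0.11 and 0.14). Krt18, a simple-epithelial keratin chosen after its values were seen, fell from 2511, 2341 and 2322 CPM to 312 to 458 CPM in BBN 2, 5 and 7 and 1121 to 1275 CPM in BBN 8, 9 and 10 (log2 fold change -1.58 ± 0.44 SE, edgeR adjusted p = 0.0193).

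**Figure D2:**
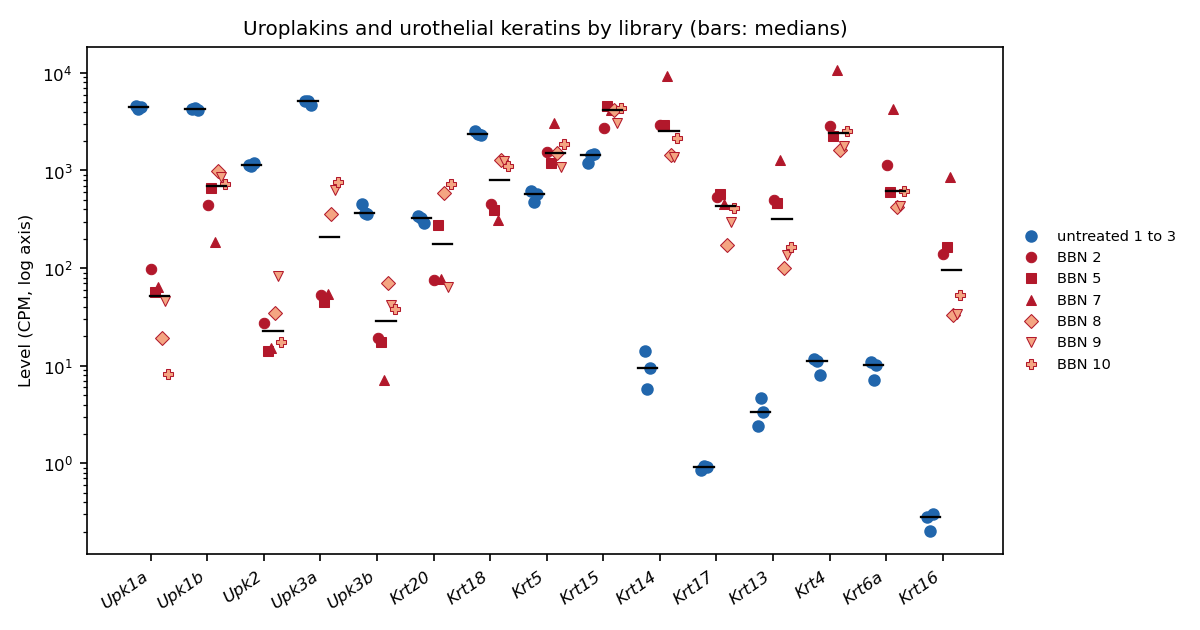
Level in CPM on a log axis of 5 uroplakin genes and 10 keratin genes in each library, with untreated bladders as blue circles, BBN bladders as red symbols (filled dark for the first range of library codes, light for the second) and black bars at the group medians. Uroplakins lie lower in all 6 BBN bladders, Krt14, Krt17, Krt13, Krt4, Krt6a and Krt16 higher in all 6, and Krt20 on both sides of the untreated values.

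Of 16 tested basal genes 13 were called higher (81.2%, against 12.1% of all tested genes) and none lower, with a median log2 fold change of 1.64. Every BBN bladder lay above every untreated one for 12 members, as for 18.9% of all tested genes, and with all 9 BBN bladders labelled N the number called higher was 4. Krt14 (chr11:100203162-100207548), a keratin of basal cells, was barely made in the untreated bladders and abundant in the BBN bladders. It was at 14.2, 5.81 and 9.55 CPM in the untreated bladders and between 1384 and 9368 CPM (median 2524) in the BBN bladders, a log2 fold change of 8.41 ± 0.91 (SE, edgeR adjusted p = 0.000111). Krt17, a keratin of injured and proliferating stratified epithelium, went from 0.846, 0.936 and 0.912 CPM to between 172 and 580.0 CPM (median 435), or 8.82 ± 0.52 (SE, edgeR adjusted p = 5.84e-06). Krt5, the partner of Krt14 in basal cells, was already present in untreated bladders at 623, 474 and 573 CPM and rose only to between 1094 and 3073 CPM (median 1522), a log2 fold change of 1.62 ± 0.32 (SE, edgeR adjusted p = 0.00382). Krt15 also rose modestly, from 1182, 1447 and 1483 CPM to between 2703 and 4525 CPM with a median of 4163 (log2 fold change 1.48 ± 0.205 SE, edgeR adjusted p = 0.000477). Trp63, the p63 gene that specifies basal cells, was not called. It was at 398, 346 and 384 CPM in the untreated bladders against 178 to 512 CPM (median 228), with overlapping groups and a log2 fold change of -0.47 ± 0.31 (SE, edgeR adjusted p = 0.267). Of the genes that attach basal cells to the matrix, Col17a1, the hemidesmosome collagen, rose from 17.8, 19.5 and 23.5 CPM to between 140.2 and 873 CPM with a median of 248 (log2 fold change 4.06 ± 0.63 SE, edgeR adjusted p = 0.000896). Ngfr, the low-affinity neurotrophin receptor found on basal epithelial cells and on nerves, went from 0.493, 0.334 and 0.304 CPM to between 9.92 and 19.5 CPM with a median of 16.8 (log2 fold change 5.35 ± 0.35 SE, edgeR adjusted p = 7.45e-06). Cd44, the hyaluronan receptor, rose by a log2 fold change of 1.14 ± 0.29 (SE, edgeR adjusted p = 0.0132), and without BBN 7 its log2 fold change of 0.89 was under the 2-fold limit.

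Genes of squamous and suprabasal epithelium, the layers of skin and esophagus that harden and shed, had the highest median of all 39 gene lists, 5.91 on the log2 scale, with 20 of 25 tested members called higher (80%, against 12.1% of all tested genes) and none lower. Krt4, a keratin of the upper layers of the esophagus, was at 11.8, 11.1 and 8.09 CPM against 1625 to 10680.0 CPM (median 2423), a log2 fold change of 8.45 ± 0.89 (SE, edgeR adjusted p = 9.2e-05). Its partner Krt13, listed here with luminal genes, was at 2.396, 4.61 and 3.35 CPM against 101 to 1285 CPM with a median of 316 (log2 fold change 6.99 ± 1.06 SE, edgeR adjusted p = 0.000835). Keratins of wounded epidermis rose as well, with Krt6a at 10.8, 7.22 and 10.2 CPM against 426 to 4245 CPM with a median of 613 (log2 fold change 7.04 ± 1.05 SE, edgeR adjusted p = 0.000741). Krt16 was at 0.282, 0.201 and 0.304 CPM against 32.8 to 861 CPM with a median of 96.7 (log2 fold change 9.62 ± 1.72 SE, edgeR adjusted p = 0.00209). BBN 7 was highest in each of these 4 keratins, and no BBN bladder reached down to the untreated ones. Krt6a and Krt6b are near-identical copies, so the split of reads between them is uncertain. Dsg3, a desmosomal cadherin of stratified epithelium, went from 0.211, 0.267 and 0.243 CPM to between 83.5 and 491 CPM with a median of 175 (log2 fold change 9.83 ± 0.81 SE, edgeR adjusted p = 2.33e-05). Cnfn, a protein of the cornified envelope, went from 0, 0.201 and 0.0608 CPM to between 5.12 and 784 CPM with a median of 44.2 (log2 fold change 10.77 ± 2.72 SE, edgeR adjusted p = 0.0129). The high values of Cnfn, 79.6 to 784 CPM, were those of BBN 2, 5 and 7, while BBN 8, 9 and 10 lay between 5.12 and 8.74 CPM. Not every envelope gene followed: Ivl (involucrin) and Sprr1a, both named after their values were seen, were high in untreated bladder and had log2 fold changes of -0.98 and -0.83, below in all 6 BBN bladders yet under the 2-fold limit. Ivl passed the limit without BBN 2, without BBN 8 or without untreated 2, with log2 fold changes of -1.0045, -1.22 and -1.05, so that 1 member was then called lower, as it was within the first code range (-1.22) and with the code range as a covariate (-1.23).

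Several of the 12 largest increases, taken over genes with a mean of at least 5 CPM and separated groups, had no count in any untreated bladder, so that only a lower bound can be given, set against 3 counts over the untreated group. On that scale Teddm3 was at least 381-fold higher, the desmoglein Dsg1b at least 245-fold, the cornified envelope genes Sprr2h, Sprr2e and Crct1 at least 239.7-fold, 136-fold and 217-fold, and the pseudogene Sprr2j-ps at least 146-fold. Cldn6, a claudin of embryonic epithelium, was at least 166-fold higher. With 1 to 3 counts over the untreated group, the ratio of pooled counts was 2470.4 (95% exact interval 684 to 20402) for Calcb, a calcitonin gene-related peptide, 1175 (95% exact interval 402 to 5699) for Calm4, a calmodulin-like protein of keratinocytes, and 2287 (95% exact interval 410.2 to 90349) for BC100530, a stefin-family gene, with intervals that cover counting error only. Many of these counts came from BBN 7. Without it, an alternative chosen after the values were seen, the bounds were 100.4-fold for Teddm3, 44.9-fold for Dsg1b, 92.4-fold for Sprr2h and 78.9-fold for Crct1. The ratios without it were 806 for Calcb, 264 for Calm4 and 632 for BC100530. Dsg1b was at 79.5 CPM in BBN 7, 8.05 and 7.55 CPM in BBN 2 and 5 and at most 0.292 CPM in BBN 8, 9 and 10, and Calm4 ran from 0.657 to 366 CPM with the same 3 libraries lowest. The calls of Teddm3 and Dsg1b did not survive leaving out any one of the 3 untreated bladders, with edgeR adjusted p from 0.112 to 0.114 and from 0.135 to 0.139. Reads of the Sprr2 family are shared among close copies, and single members are uncertain.

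The promoter of Sprr1b, a further envelope gene of the squamous list that was named after its values were seen (at 0.657 to 97.6 CPM in BBN bladders, with a ratio of pooled counts of 488 (95% exact interval 135 to 4031) and of 127 without BBN 7), is shown because it holds the letters TGANTCA, which the transcription factor AP-1 binds. The RefSeq sequence in GRCm38.p6, the 150 bases before the start site, 5′ to 3′, carries the match in capitals.
Sprr1b, chr3:92438780-92438929, minus strand: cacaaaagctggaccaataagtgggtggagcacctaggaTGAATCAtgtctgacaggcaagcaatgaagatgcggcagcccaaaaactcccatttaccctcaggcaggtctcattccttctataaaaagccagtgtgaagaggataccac
Searched on both strands in windows from 250 bases before to 50 after the start site, TGANTCA was held by 8.97% of 27025 genes with a window, by 13% of the 1349 genes called higher and by 7.2% of the 1180 called lower that had one. In the squamous list 8 of 17 members with a window held it, 5 of the 10 called higher and 3 of the 5 not called. A match describes these letters only, and nothing about binding was measured.

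S100a genes, small calcium-binding proteins many of which mark activated keratinocytes or neutrophils, rose in 8 of 12 (66.7%, against 12.1% of all tested genes) and fell in 1 with a median log2 fold change of 1.26, and without untreated 3 the number called higher was 5. S100a14, an epithelial member, was at 51.7, 36.8 and 46.05 CPM against 195 to 364 CPM with a median of 210.2 (log2 fold change 2.41 ± 0.25 SE, edgeR adjusted p = 7.73e-05). S100a8 and S100a9, the subunits of calprotectin, were below 1 CPM in every untreated bladder and highest in BBN 2 and BBN 7 (55.4 and 14.2 CPM of S100a8). In BBN 8 they were at 0.478 and 0.205 CPM, just above the highest untreated values of 0.304 and 0.201 CPM, and both were called, with log2 fold changes of 6.16 ± 1.81 (SE, edgeR adjusted p = 0.0253) and 6.57 ± 1.82 (SE, edgeR adjusted p = 0.0192). S100a1, which marks muscle, fell from 469.7, 514 and 415 CPM to between 29.4 and 87.5 CPM with a median of 60.3 (log2 fold change -2.97 ± 0.27 SE, edgeR adjusted p = 3.99e-05). Of 14 barrier junction genes 2 rose (14.3%, against 12.1% of all tested genes) and 1 fell. Cldn8, a sealing claudin of the urothelium, fell from 457, 444 and 441 CPM to between 8.39 and 45.8 CPM (median 15.2), a log2 fold change of -4.54 ± 0.43 (SE, edgeR adjusted p = 4.78e-05). Cldn3 rose from 0.352, 0.401 and 0.122 CPM to between 54.9 and 173 CPM with a median of 88.2 (log2 fold change 8.404 ± 0.598 SE, edgeR adjusted p = 1.07e-05). Cldn7 went from 130.0, 146 and 189.7 CPM to between 249.5 and 420.2 CPM with a median of 342 (log2 fold change 1.14 ± 0.21 SE, edgeR adjusted p = 0.00237), but stayed under the 2-fold limit within the first code range (0.87) and with the code range as a covariate (0.86). Cdh1, the E-cadherin gene, was not called, at 746, 658 and 732 CPM against 662 to 1611 CPM (median 1207).

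Genes of the dividing cell rose almost without exception. Of 35 cell cycle genes 34 were called higher (97.1%, against 12.1% of all tested genes) and none lower, with 32 to 34 called when any one library was left out. The groups were separated for 33, against 18.9% of all tested genes, and the median log2 fold change was 3.44. Mki67, the Ki-67 proliferation antigen, was at 3.67, 2.47 and 2.37 CPM in the untreated bladders and between 33.6 and 81.6 CPM (median 61.96) in BBN bladders, a log2 fold change of 4.43 ± 0.32 (SE, edgeR adjusted p = 1.14e-05). Top2a, the topoisomerase of dividing cells, was at 4.72, 5.55 and 7.42 CPM against 46.3 to 126 CPM with a median of 91.3 (log2 fold change 3.99 ± 0.35 SE, edgeR adjusted p = 3.15e-05). BBN 5 was lowest for both and still several times above the untreated bladders. The mitotic cyclin Ccnb1 (chr13:100778650-100786570) went from 2.54, 2.14 and 1.34 CPM to between 58.3 and 132 CPM with a median of 88.3 (log2 fold change 5.55 ± 0.35 SE, edgeR adjusted p = 7.03e-06), its kinase Cdk1 (chr10:69335146-69352938) from 1.48, 2.21 and 1.82 CPM to between 35.7 and 99.1 CPM with a median of 56.1 (log2 fold change 5.07 ± 0.38 SE, edgeR adjusted p = 1.47e-05), and Cdc20 (chr4:118432901-118437352), which activates the anaphase-promoting complex, from 1.97, 3.94 and 2.68 CPM to between 54.8 and 86.3 CPM with a median of 77.6 (log2 fold change 4.69 ± 0.28 SE, edgeR adjusted p = 5.84e-06). Cdc20 was among the 5 genes called higher with the smallest p. The G1 cyclin Ccnd1 rose less, from 45.2, 42.1 and 45.3 CPM to between 94.3 and 153 CPM with a median of 122 (log2 fold change 1.47 ± 0.18 SE, edgeR adjusted p = 0.000225), and Pcna, the replication clamp, by a log2 fold change of 1.1 ± 0.17 (SE, edgeR adjusted p = 0.00101), which without untreated 1 was 0.97 and under the limit.

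Promoters of Cdc20, Ccnb1 and Cdk1 are shown because these genes moved together and because each holds the letters CCAAT in 2 places close to its start. CCAAT is the site of the factor NF-Y, which acts at many mitotic genes. The 150 bases before the start site in GRCm38.p6 (RefSeq), 5′ to 3′ along the gene, have CCAAT or its reverse complement in capitals.
Cdc20, chr4:118437344-118437493, minus strand: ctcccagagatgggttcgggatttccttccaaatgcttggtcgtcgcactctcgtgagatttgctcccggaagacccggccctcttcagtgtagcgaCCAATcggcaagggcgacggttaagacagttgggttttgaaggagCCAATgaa
Ccnb1, chr13:100786487-100786636, minus strand: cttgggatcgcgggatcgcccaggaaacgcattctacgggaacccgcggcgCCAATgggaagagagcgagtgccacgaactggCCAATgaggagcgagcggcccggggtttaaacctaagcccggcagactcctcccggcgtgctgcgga
Cdk1, chr10:69352913-69353062, minus strand: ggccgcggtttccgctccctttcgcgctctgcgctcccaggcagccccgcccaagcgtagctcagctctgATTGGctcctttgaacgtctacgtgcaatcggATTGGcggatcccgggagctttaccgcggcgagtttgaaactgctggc
CCAAT is a short and common word, held on either strand by 41.1% of the 27025 genes with a window and by 43.5% of those called higher. Of 28 cell cycle genes with a window 21 held it.

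DNA repair genes rose in 10 of 26 members (38.5%, against 12.1% of all tested genes) and fell in none, with a median log2 fold change of 0.62. Exo1, an exonuclease of mismatch repair and end resection, was at 0.775, 0.535 and 0.608 CPM against 4.75 to 19.6 CPM with a median of 16.1 (log2 fold change 4.45 ± 0.53 SE, edgeR adjusted p = 0.000181). Ung, the uracil-DNA glycosylase, was at 0.141, 0.334 and 0.182 CPM against 2.33 to 6.13 CPM with a median of 3.16 (log2 fold change 4.01 ± 0.52 SE, edgeR adjusted p = 0.000326). Msh6, a mismatch repair subunit, rose from 47.9, 49.3 and 49.8 CPM to between 108 and 400.5 CPM with a median of 236 (log2 fold change 2.301 ± 0.44 SE, edgeR adjusted p = 0.00305). Targets of p53 rose in 8 of 28 (28.6%) and fell in none, or 1 without BBN 8, with a median log2 fold change of 0.67. Cdkn1a, the p21 cell cycle inhibitor, was at 73.2, 71.1 and 82.2 CPM against 174 to 415 CPM (median 226), a log2 fold change of 1.71 ± 0.28 (SE, edgeR adjusted p = 0.00128), and was highest in BBN 8. Gdf15, a stress cytokine, rose by a log2 fold change of 4.15 ± 0.804 (SE, edgeR adjusted p = 0.0033) from levels below 0.3 CPM, and Trp73, the p53 homologue that basal cells also make, from 0.211, 0.201 and 0.182 CPM to between 7.12 and 14.7 CPM with a median of 9.01 (log2 fold change 5.63 ± 0.44 SE, edgeR adjusted p = 1.76e-05). Mdm2, the ubiquitin ligase of p53, was not called at 101, 86.3 and 90.4 CPM against 89.9 to 204 CPM (median 116). Trp53 itself was higher in all 6 BBN bladders, at 45.9, 46.3 and 51.3 CPM against 58.3 to 97.3 CPM (median 81.05), a log2 fold change of 0.698 ± 0.17 (SE, edgeR adjusted p = 0.00982) that stayed under the 2-fold limit. Cdkn2a, the locus of p16 and p19Arf, had 3 counts in all untreated bladders together and 30 to 76 in each BBN bladder, a ratio of 50.95 (95% exact interval 17.3 to 249). Of 26 genes often mutated in urothelial cancer 4 rose (15.4%, against 12.1% of all tested genes), Cdkn2a, Ccnd1, Elf3 and Myc, the last from 28.4, 32.2 and 36.3 CPM to between 53.3 and 124 CPM with a median of 82.3 (log2 fold change 1.397 ± 0.25 SE, edgeR adjusted p = 0.00196).

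Enzymes that handle carcinogens and oxidants moved in both directions. Gstm1, a mu-class glutathione transferase, was at 16540.0, 14900.0 and 16330.0 CPM in untreated bladders and between 520.1 and 2054 CPM (median 1530.0) in BBN bladders, a log2 fold change of -3.52 ± 0.41 (SE, edgeR adjusted p = 0.000171) with separate groups. Gstm3 fell with it, from 366, 313 and 267 CPM to between 5.56 and 23.4 CPM with a median of 18.6 (log2 fold change -4.297 ± 0.41 SE, edgeR adjusted p = 5.1e-05), and reads of mu-class copies can be shared. Gsto1, an omega-class transferase, rose instead, from 274, 318 and 314 CPM to between 2314 and 4574 CPM with a median of 3281 (log2 fold change 3.42 ± 0.26 SE, edgeR adjusted p = 1.49e-05). Gpx2, an epithelial glutathione peroxidase under NRF2, also rose, from 41.6, 32.6 and 37.8 CPM to between 417 and 675 CPM with a median of 604 (log2 fold change 3.92 ± 0.23 SE, edgeR adjusted p = 5.84e-06). Of 24 NRF2 and glutathione genes 6 rose (25%, against 12.1% of all tested genes) and 3 fell (12.5%, against 10.3%), with a median log2 fold change of 0.11. Of 29 xenobiotic genes 10 rose (34.5%) and 8 fell (27.6%), with a median of 0.41. Gsta1 and Slc7a11, the cystine transporter, were highest in BBN 5 (219.8 and 102 CPM) and rose by log2 fold changes of 3.28 ± 0.94 (SE, edgeR adjusted p = 0.0224) and 2.14 ± 0.48 (SE, edgeR adjusted p = 0.00696).

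Of the enzymes that fell, Cyp1a1, which oxidises aromatic carcinogens, went from 59.8, 49.05 and 30.7 CPM to between 0.546 and 5.002 CPM with a median of 2.84 (log2 fold change -4.002 ± 0.51 SE, edgeR adjusted p = 0.000312). Ugt1a6a, a glucuronosyltransferase that shares exons with other genes of its locus, was at 512, 435 and 557 CPM against a narrow range of BBN values, between 56.3 and 78.4 CPM (median 62.7), and was among the 5 genes called lower with the smallest p (log2 fold change -2.93 ± 0.14 SE, edgeR adjusted p = 2.03e-06). Adh1, an alcohol and retinol dehydrogenase, fell from 1475, 1417 and 1374 CPM to between 61.96 and 227 CPM with a median of 146 (log2 fold change -3.29 ± 0.295 SE, edgeR adjusted p = 3.64e-05). Cyp2f2, an airway cytochrome P450, went from 851, 1008 and 1040.0 CPM to between 176 and 604 CPM with a median of 263 (log2 fold change -1.68 ± 0.33 SE, edgeR adjusted p = 0.00366). Of those that rose, Cyp2b10, a target of the receptor CAR in liver, was at 0.141, 0 and 0.122 CPM against 7.33 to 33.9 CPM with a median of 13.4 (log2 fold change 7.44 ± 0.85 SE, edgeR adjusted p = 0.000147). The aldehyde dehydrogenases Aldh1a3, which makes retinoic acid, and Aldh3a1 rose by log2 fold changes of 3.504 ± 0.88 (SE, edgeR adjusted p = 0.0127) and 1.51 ± 0.43 (SE, edgeR adjusted p = 0.0226). Further cytochrome P450 genes stood among the largest decreases over all genes, Cyp4f15 from 392, 404 and 446 CPM to between 0.563 and 4.599 CPM with a median of 1.54 (log2 fold change -7.598 ± 0.54 SE, edgeR adjusted p = 1.07e-05). Cyp3a57 went from 30.2, 30.8 and 43.2 CPM to between 0.0778 and 0.973 CPM with a median of 0.395 (log2 fold change -6.11 ± 0.49 SE, edgeR adjusted p = 2.14e-05).

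Il33 had the smallest p of the genes called higher. This alarmin of the interleukin-1 family (chr19:29925114-29960718), stored in nuclei of epithelial and stromal cells and released on damage, was at 13.1, 14.8 and 11.3 CPM in the untreated bladders and between 413 and 623 CPM (median 574) in the BBN bladders. BBN 5 was lowest, the other 5 lay close together, and the log2 fold change was 5.41 ± 0.201 (SE, edgeR adjusted p = 5.65e-07). In the list of interleukin-1 and interleukin-6 family genes 12 of 22 were called higher (54.5%, against 12.1% of all tested genes) and none lower, with a median log2 fold change of 2.75. Il1a was at 0.423, 0.401 and 0.243 CPM against 3.005 to 39.9 CPM with a median of 5.94 (log2 fold change 5.05 ± 1.03 SE, edgeR adjusted p = 0.00438). Il1b, the cytokine of inflammasome-active myeloid cells, was at 0.423, 1.002 and 0.912 CPM against 1.78 to 34.2 CPM (median 13.9), with BBN 2, 7 and 9 far above BBN 5 and 8, and rose by a log2 fold change of 4.37 ± 1.14 (SE, edgeR adjusted p = 0.0149). Il24 had no count in untreated bladders or in BBN 5 and was at least 18.9-fold higher over the pooled counts, or 10.6-fold without BBN 9. Il6 was too low for the test, with 0.141, 0 and 0.243 CPM in untreated bladders and at most 3.89 CPM in BBN bladders, and was above 1 CPM only in BBN 2 and BBN 9.

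Of 24 TNF and NF-kB genes 12 rose (50%) and none fell, with a median log2 fold change of 1.14. Tnf was low everywhere, at 0.352, 0.267 and 0.426 CPM against 0.7004 to 4.15 CPM (median 1.69), though separate between the groups (log2 fold change 2.43 ± 0.602 SE, edgeR adjusted p = 0.0118). Tnfrsf1b, its second receptor, was not called, at 29.2, 21.4 and 26.3 CPM against 22.4 to 69.8 CPM (median 33.9). Ptgs2, the inducible cyclooxygenase COX-2, was at 2.68, 1.002 and 1.58 CPM against 39.1 to 174 CPM (median 88.02), a log2 fold change of 5.69 ± 0.65 (SE, edgeR adjusted p = 0.000145). The NF-kB regulators Nfkbiz and Bcl3 rose by log2 fold changes of 2.57 ± 0.37 (SE, edgeR adjusted p = 0.000553) and 2.77 ± 0.36 (SE, edgeR adjusted p = 0.000309), and Socs3, the feedback inhibitor of STAT3 signalling, by a log2 fold change of 3.603 ± 0.56 (SE, edgeR adjusted p = 0.000974). Chemokine genes were called higher in 16 of 35 members (45.7%, against 12.1% of all tested genes), but in 8 without untreated 1 and 9 without untreated 2. Cxcl5, which attracts neutrophils, was at 0.352, 0.267 and 0.182 CPM against 16.1 to 218 CPM with a median of 39.9 (log2 fold change 7.86 ± 1.25 SE, edgeR adjusted p = 0.00105), highest in BBN 7. Ccl20, Cxcl2 and Cxcl3 had no count in the untreated bladders and were at least 23.5-fold, 25.2-fold and 110.0-fold higher. The list's median log2 fold change was 1.55, also with these 3 genes at their bound. Cxcl12, a chemokine of stromal cells, was not called, at 104, 166 and 116 CPM against 64.2 to 394 CPM (median 158).

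Areg, Ereg and Hbegf, ligands of the EGF receptor, rose. Areg (amphiregulin, chr5:91139599-91148432) was at 0.141, 0.735 and 0.365 CPM against 33.4 to 95.5 CPM (median 85.3), a log2 fold change of 7.49 ± 0.54 (SE, edgeR adjusted p = 1.14e-05). Ereg (epiregulin) was at 2.396, 0.468 and 1.09 CPM against 28.6 to 112 CPM with a median of 83.1 (log2 fold change 5.83 ± 0.61 SE, edgeR adjusted p = 8.33e-05). Hbegf, the heparin-binding ligand, was at 10.8, 9.22 and 7.3 CPM against 57.1 to 309 CPM with a median of 79.5 (log2 fold change 3.64 ± 0.62 SE, edgeR adjusted p = 0.00162). Every BBN bladder lay above every untreated one for all 3 ligands, with BBN 5 lowest for Areg and Ereg and BBN 7 highest for Hbegf. Epgn (epigen) had 3 counts in all untreated bladders and a ratio of 56.1 (95% exact interval 19.02 to 274). Over the EGF and FGF family list, with a median log2 fold change of 0.19, 6 of 17 rose (35.3%, against 12.1% of all tested genes) and Fgf1 fell, a call lost without untreated 1 (log2 fold change -1.098, edgeR adjusted p = 0.134), and without BBN 5 3 members were called lower. Fgfr3, a receptor often mutated in human urothelial cancer, was at 90.2, 100.2 and 97.8 CPM against 84.95 to 287 CPM (median 146) and not called (log2 fold change 0.81 ± 0.36 SE, edgeR adjusted p = 0.111). It was called higher, just past the limit, within the first code range (log2 fold change 1.01, edgeR adjusted p = 0.0453) and with the code range as a covariate (1.004, 0.0907). Egfr, the EGF receptor, named after its values were seen, was not called at a log2 fold change of 0.38. Immediate early genes, which cells turn on within minutes of a stimulus, rose in 13 of 19 (68.4%) with a median of 1.75. Fosl1, an AP-1 subunit, was at 0.282, 0.401 and 0.243 CPM against 3.42 to 14.4 CPM with a median of 6.88 (log2 fold change 4.56 ± 0.57 SE, edgeR adjusted p = 0.000253), Egr1 rose by a log2 fold change of 2.83 ± 0.41 (SE, edgeR adjusted p = 0.000635) and Atf3, a stress-response factor, by a log2 fold change of 2.77 ± 0.34 (SE, edgeR adjusted p = 0.000255).

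**Figure D3:**
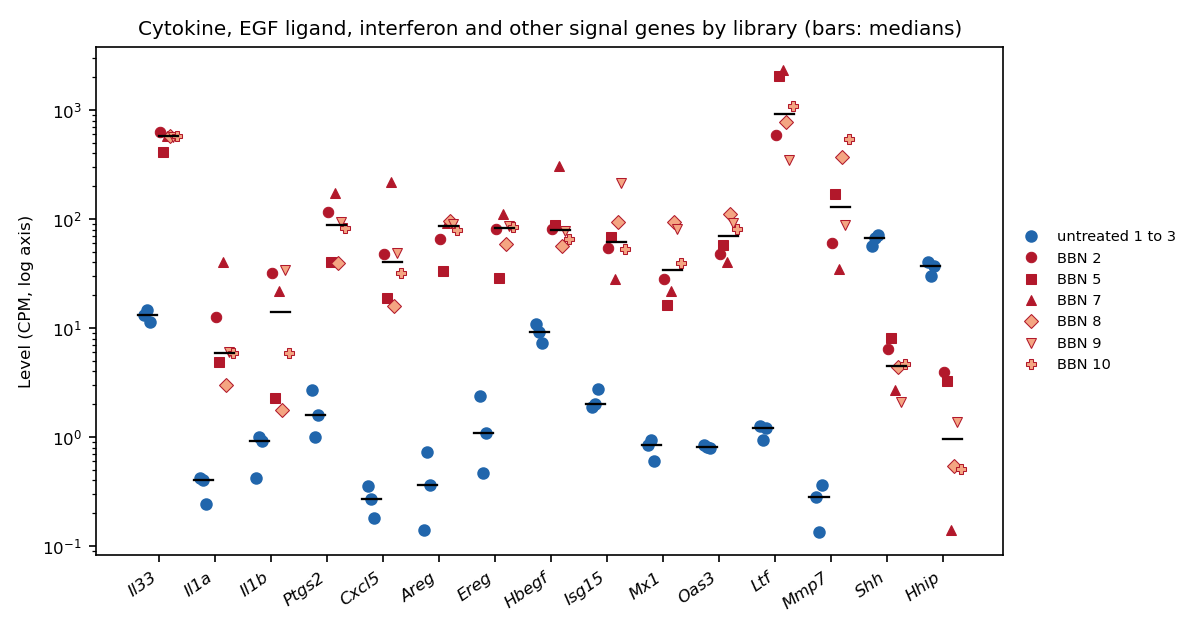
Level in CPM on a log axis of 15 cytokine, EGF ligand, interferon-induced, secreted and hedgehog genes in each library, with blue circles for untreated bladders, red symbols for BBN bladders (dark for the first range of library codes, light for the second) and bars at the medians. Il33, Areg, Oas3 and Ltf lie higher in all 6 BBN bladders with wide gaps, and Shh and Hhip lie lower in all 6.

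Interferon-induced genes rose in 23 of 39 members (59%, against 12.1% of all tested genes) and fell in none (1 fell without BBN 2 or BBN 9), with a median log2 fold change of 1.65. Oas3, an antiviral oligoadenylate synthetase, was at 0.846, 0.802 and 0.791 CPM against 40.2 to 112 CPM with a median of 69.7 (log2 fold change 6.45 ± 0.45 SE, edgeR adjusted p = 1.01e-05), with reads that close copies of the Oas family can share. Its relative Oasl1 was at 1.903, 1.74 and 2.13 CPM against 93.3 to 256 CPM with a median of 139.8 (log2 fold change 6.31 ± 0.41 SE, edgeR adjusted p = 7.19e-06). Isg15, a ubiquitin-like modifier, was at 1.903, 2.005 and 2.74 CPM against 28.2 to 215 CPM with a median of 61.1 (log2 fold change 5.26 ± 0.71 SE, edgeR adjusted p = 0.00042), highest in BBN 9 and lowest in BBN 7. Mx1, a dynamin-like antiviral GTPase, was at 0.846, 0.936 and 0.608 CPM against 16.3 to 93.8 CPM with a median of 33.8 (log2 fold change 5.87 ± 0.76 SE, edgeR adjusted p = 0.000318). The summed level of the list was 2282 CPM in untreated 3 against 823 and 906 CPM in untreated 1 and 2, inside the range of the BBN bladders (1863 to 7162 CPM).

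Ifit1, an antiviral RNA-binding protein named after its values were seen, was at 8.03, 7.08 and 10.7 CPM against 60.5 to 297 CPM with a median of 187 (log2 fold change 4.396 ± 0.51 SE, edgeR adjusted p = 0.000164). Promoters of Isg15, Ifit1 and Oas3 are shown because they hold GAAA, any 2 bases and GAAA again, the core of the interferon-stimulated response element. The 150 bases before the start site in GRCm38.p6 (RefSeq), 5′ to 3′ along the gene, carry it or its reverse complement in capitals.
Isg15, chr4:156200819-156200968, minus strand: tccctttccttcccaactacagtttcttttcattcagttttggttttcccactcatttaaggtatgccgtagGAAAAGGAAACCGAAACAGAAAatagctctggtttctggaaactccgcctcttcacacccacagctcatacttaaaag
Ifit1, chr19:34640739-34640888, plus strand: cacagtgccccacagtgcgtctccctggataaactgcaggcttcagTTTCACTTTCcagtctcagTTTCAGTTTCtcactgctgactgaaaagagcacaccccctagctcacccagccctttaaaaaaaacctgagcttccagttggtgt
Oas3, chr5:120777660-120777809, minus strand: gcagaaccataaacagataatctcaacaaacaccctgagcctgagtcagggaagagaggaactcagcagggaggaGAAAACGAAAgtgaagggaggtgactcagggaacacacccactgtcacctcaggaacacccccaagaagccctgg
Isg15 has 3 overlapping matches in 1 run and Ifit1 has 2 apart. In windows from 250 bases before to 50 after the start site 3.99% of all genes held these letters, 6.23% of those called higher and 2.46% of those called lower. Of 29 interferon-list genes with a window 19 held them, 11 of the 18 called higher and 8 of the 10 not called.

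MHC and antigen presentation genes had 4 of 20 called higher (20%, against 12.1% of all tested genes) and none lower, with a median log2 fold change of 0.62, and this count changed with most alternatives. It was 0 without untreated 2, 1 without untreated 1 or without BBN 9, and 2 without BBN 2 or without BBN 5, and 0 in a fit of the first code range alone, with the code range as a covariate or with all 9 BBN bladders labelled N. It was 1 with upper quartile factors, limma-trend, RIN as a covariate or a limit of 0.05 on the adjusted p, and 2 with no filter or with the bladder of mouse 6 added. Psmb8, an immunoproteasome subunit, was at 64.3, 79.3 and 145 CPM against 76.2 to 634 CPM (median 248) with overlapping groups (log2 fold change 1.53 ± 0.55 SE, edgeR adjusted p = 0.0563), and was not called without untreated 1 or 2 (edgeR adjusted p = 0.199 and 0.184), within the first code range (0.195) or with the code range as a covariate (0.23).

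Marker genes of immune cells gave an uneven picture, and in bulk tissue more cells of a type and more RNA per cell cannot be told apart. Neutrophil genes (median log2 fold change 2.86) were called higher in 9 of 11 tested members (81.8%, against 12.1% of all tested genes), and in 4 without untreated 1 or untreated 2, while the granule genes Mpo and Ngp, named after their values were seen, did not reach the filter. Both were highest in BBN 2, at 2.204 and 10.9 CPM, and at most 0.535 and 1.17 CPM elsewhere. Trem1, a receptor of myeloid cells, was at 0, 0.334 and 0.0608 CPM against 1.09 to 4.65 CPM with a median of 2.502 (log2 fold change 4.22 ± 0.88 SE, edgeR adjusted p = 0.00494). Ltf and Lcn2, in the same list, are also made by mucosal epithelium. Macrophage genes (median 0.65) rose in 6 of 23 (26.1%, against 12.1% of all tested genes), and 1 fell (4.35%, against 10.3%), 3 without BBN 2 and 2 without BBN 5. Cd14, the endotoxin co-receptor, rose from 39.1, 48.7 and 43.4 CPM to between 152 and 291 CPM with a median of 211 (log2 fold change 2.29 ± 0.23 SE, edgeR adjusted p = 6.6e-05). Folr2, a gene of resident macrophages, fell from 29.1, 24.9 and 16.4 CPM to between 2.66 and 12.2 CPM with a median of 7.36 (log2 fold change -1.72 ± 0.47 SE, edgeR adjusted p = 0.0175).

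Of 26 T cell and cytotoxic genes 4 rose (15.4%, against 12.1% of all tested genes, median log2 fold change 0.86), namely Ctla4, Pdcd1 (PD-1), Tigit and Havcr2 (TIM-3), receptors that restrain T cells, the last also found on myeloid cells. Lag3, a further such receptor in the list, named after its values were seen, was too low for the test. Pdcd1 was at 0.0705, 0.134 and 0.243 CPM against 0.584 to 4.01 CPM with a median of 3.22 (log2 fold change 4.05 ± 0.805 SE, edgeR adjusted p = 0.00377). Tigit was at 0.141, 0.201 and 0.304 CPM against 0.73 to 2.59 CPM with a median of 2.06 (log2 fold change 3.0 ± 0.61 SE, edgeR adjusted p = 0.00448). Havcr2 was at 3.52, 4.21 and 4.75 CPM against 8.25 to 21.5 CPM with a median of 16.01 (log2 fold change 1.82 ± 0.35 SE, edgeR adjusted p = 0.00345). Ctla4 rose by a log2 fold change of 4.31 ± 1.25 (SE, edgeR adjusted p = 0.0233) although BBN 10 overlapped the untreated bladders. The lineage genes Cd3e, Cd4 and Cd8a, named after their values were seen, were not called, with log2 fold changes of 0.298, 0.94 and 0.99 and overlapping groups, and that of Cd3e was -0.36 without BBN 2. The count of lower T cell genes was 0, but 1 without BBN 2 or without BBN 9. These 2 bladders had the highest summed levels of the list, 177 and 159 CPM, against 24.9 CPM in BBN 10 and 40.7 to 71.7 CPM in the untreated bladders. Jchain, which joins secreted IgA and IgM, was at 3.03, 11.96 and 12.6 CPM against 13.8 to 1160.0 CPM with a median of 269 (log2 fold change 5.49 ± 1.35 SE, edgeR adjusted p = 0.0111), again highest in BBN 9 and BBN 2. Of 15 B cell and plasma cell genes (median 1.63) 3 rose (20%, against 12.1% of all tested genes), 1 without untreated 1 or untreated 2 and 5 without BBN 10. Mast cell genes (median -0.105) rose in 1 of 11, Hdc (log2 fold change 2.23 ± 0.604 SE, edgeR adjusted p = 0.0175), and fell in 1, Gata2 (log2 fold change -1.44 ± 0.26 SE, edgeR adjusted p = 0.00232), or 2 without BBN 2, and Gata2 is also made by urothelium. Either share is 9.09%, below those of all tested genes. Eosinophil and type 2 genes (median 1.33) had 2 of 8 in each direction (25%, against 12.1% higher and 10.3% lower over all tested genes), none called higher without untreated 1 or 2, 4 without BBN 7 or BBN 10, and 1 called lower without untreated 2 or 3. Retnla, a resistin-like molecule, fell from 90.98, 110.4 and 124 CPM to between 1.61 and 53.8 CPM with a median of 19.2 (log2 fold change -2.31 ± 0.71 SE, edgeR adjusted p = 0.0303).

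Secreted defence genes of mucosa rose in 15 of 19 tested members (78.9%, against 12.1% of all tested genes) and fell in 1, with a median log2 fold change of 2.73. Ltf (lactotransferrin, chr9:111019271-111042767), an iron-binding antimicrobial protein, was at 1.27, 0.936 and 1.22 CPM in untreated bladders and between 351 and 2321 CPM (median 927) in BBN bladders. This is a log2 fold change of 10.02 ± 0.89 (SE, edgeR adjusted p = 3.48e-05), one of the 12 largest increases, and Ltf was at least 351 CPM in every BBN bladder. Sftpd, a collectin first known from lung surfactant, went from 0.141, 0.0668 and 0.0608 CPM to between 10 and 170.1 CPM with a median of 69.3 (log2 fold change 9.63 ± 1.27 SE, edgeR adjusted p = 0.000353). Lcn2, which binds bacterial siderophores, went from 0.705, 0.735 and 0.0608 CPM to between 3.17 and 27.9 CPM with a median of 12.7 (log2 fold change 4.87 ± 0.97 SE, edgeR adjusted p = 0.00377). Muc4, a membrane mucin, had no count in untreated bladders and was at least 55-fold higher, and the beta-defensin Defb14 had a ratio of 309 (95% exact interval 55.2 to 12228) and of 141 without BBN 7. Rnase4, a secreted ribonuclease, fell from 349, 378 and 384 CPM to between 56.6 and 235 CPM with a median of 127 (log2 fold change -1.45 ± 0.34 SE, edgeR adjusted p = 0.00949). Complement genes had 2 of 19 called higher (10.5%, against 12.1% of all tested genes) and a median of -0.06. None was called lower, but 3 were without BBN 2 and 1 without BBN 5. Clu, the secreted chaperone clusterin, was the larger of these increases, at 522, 602 and 466 CPM against 1173 to 2696 CPM in BBN 2, 5 and 7 and 6285 to 9365 CPM in BBN 8, 9 and 10 (log2 fold change 3.18 ± 0.696 SE, edgeR adjusted p = 0.00624). Among water channels Aqp3, which basal and intermediate urothelial cells carry, fell from 1099, 1008 and 1217 CPM to between 329 and 982 CPM with a median of 408 (log2 fold change -1.18 ± 0.33 SE, edgeR adjusted p = 0.0193). Its call was lost within the first code range (log2 fold change -0.89, edgeR adjusted p = 0.115) and with the code range as a covariate (-0.895, 0.0857). Aqp4 rose from 0.282, 0.535 and 0.547 CPM to between 48.1 and 668 CPM with a median of 115 (log2 fold change 8.81 ± 1.3 SE, edgeR adjusted p = 0.000683) and was highest in BBN 8. Within the first code range the log2 fold change of Aqp4 was 7.41 (edgeR adjusted p = 0.00042).

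Shh, Hhip and Ptch1, genes of hedgehog signalling from urothelium to stroma, fell, picked from a longer list whose counts follow. Shh (chr5:28456815-28467256), the ligand that basal urothelial cells secrete, was at 57.1, 66.3 and 71.8 CPM against 2.08 to 8.09 CPM (median 4.52), a log2 fold change of -3.79 ± 0.35 (SE, edgeR adjusted p = 4.56e-05) without overlap. Hhip, the hedgehog-binding inhibitor that stromal cells turn on in response, was at 39.96, 29.8 and 37.4 CPM against 0.141 to 3.98 CPM with a median of 0.954 (log2 fold change -4.46 ± 0.703 SE, edgeR adjusted p = 0.00102). Ptch1, the receptor, was at 23.8, 14.97 and 18.1 CPM against 3.14 to 8.48 CPM with a median of 5.27 (log2 fold change -1.81 ± 0.28 SE, edgeR adjusted p = 0.00102). Gli1, a transcription factor of the pathway, was at 4.23, 3.07 and 2.92 CPM against 0.273 to 2.49 CPM with a median of 0.925 (log2 fold change -1.67 ± 0.597 SE, edgeR adjusted p = 0.054), and its call was lost without any one of the untreated bladders (edgeR adjusted p = 0.107 to 0.172), within the first code range (0.139) and with the code range as a covariate (0.201). These genes belong to a list of 30 activated fibroblast and TGF-beta genes, with a median of 0.3, of which 4 rose (13.3%, against 12.1% of all tested genes) and 5 fell (16.7%, against 10.3%), or 2 and 3 without untreated 1. Inhba, a subunit of activin, rose from 0.634, 0.668 and 0.852 CPM to between 3.28 and 12.2 CPM with a median of 4.695 (log2 fold change 2.94 ± 0.51 SE, edgeR adjusted p = 0.0018).

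Collagen and matrix genes fell in 16 of 29 members (55.2%, against 10.3% of all tested genes) and rose in 1, with a median log2 fold change of -1.28. Without untreated 1, which had the highest collagen levels, 8 fell, and 9 in the first range of library codes. Col1a1, the main fibrillar collagen, was at 955, 609 and 540.1 CPM against 32.8 to 387 CPM with a median of 97.2 (log2 fold change -2.45 ± 0.66 SE, edgeR adjusted p = 0.0174). Within the first code range the log2 fold change of Col1a1 was -1.82 (edgeR adjusted p = 0.0505). Col14a1, a fibril-associated collagen, fell from 217, 190.3 and 174 CPM to between 10.7 and 50.4 CPM with a median of 28.7 (log2 fold change -2.73 ± 0.34 SE, edgeR adjusted p = 0.000268). Col6a3, a chain of collagen VI, went from 77.7, 54.7 and 42.6 CPM to between 6.35 and 31.3 CPM with a median of 14.01 (log2 fold change -1.92 ± 0.398 SE, edgeR adjusted p = 0.00471). Dcn, the proteoglycan decorin, was not called, at 2454, 2264 and 1860.0 CPM against 493 to 1885 CPM (median 1343). Col7a1, the anchoring fibril collagen made by basal keratinocytes, was the member that rose, from 3.101, 2.67 and 2.19 CPM to between 14.3 and 102 CPM with a median of 47.8 (log2 fold change 4.33 ± 0.602 SE, edgeR adjusted p = 0.000489). Matrix proteases (median 1.65) rose in 10 of 19 (52.6%, against 12.1%), and none fell except that 1 was called lower without BBN 2. Mmp7 (matrilysin), an epithelial protease, was at 0.282, 0.134 and 0.365 CPM against 34.6 to 541 CPM with a median of 128 (log2 fold change 9.602 ± 1.35 SE, edgeR adjusted p = 0.000517), highest in BBN 10 and BBN 8. Adam8 was at 7.54, 6.15 and 8.39 CPM against 79.1 to 202 CPM with a median of 128 (log2 fold change 4.16 ± 0.36 SE, edgeR adjusted p = 2.82e-05).

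Smooth muscle genes were lower by smaller factors. All 25 tested members had a negative log2 fold change, 19 with every BBN bladder below every untreated one (18.4% of all tested genes did so), and the median was -0.97. The 2-fold limit cut through the list, so that 12 were called lower (48%, against 10.3% of all tested genes), 4 without BBN 10 and 5 in a fit of the first code range or with all 9 BBN bladders labelled N. Their summed level was 17172 to 20389 CPM in the untreated bladders and 5624 to 13352 CPM in the BBN bladders, lowest in BBN 10. P2rx1, the ATP receptor through which nerves contract the detrusor, was at 270.1, 329.5 and 238 CPM against 40.4 to 148 CPM with a median of 86.1 (log2 fold change -1.58 ± 0.31 SE, edgeR adjusted p = 0.00377). The muscarinic receptor Chrm3 was at 9.23, 5.55 and 5.66 CPM against 0.876 to 3.28 CPM with a median of 2.43 (log2 fold change -1.55 ± 0.38 SE, edgeR adjusted p = 0.0112). Myh11, the contractile myosin, was at 2274, 1940.0 and 1902 CPM against 327 to 1675 CPM with a median of 994 (log2 fold change -1.08 ± 0.44 SE, edgeR adjusted p = 0.0856). Its call was lost without BBN 7, BBN 9 or BBN 10 or any untreated bladder, with log2 fold changes from -1.15 to -0.89 in these fits. It was also lost within the first code range (log2 fold change -0.73) and with the code range as a covariate (-0.74). Acta2, smooth muscle actin, was below in all 6 BBN bladders at 2768, 2732 and 2324 CPM against 706 to 2081 CPM (median 1464), under the limit (log2 fold change -0.85 ± 0.29 SE, edgeR adjusted p = 0.0457).

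Endothelial genes (median -0.51) fell in 3 of 22 (13.6%, against 10.3% of all tested genes), 6 without BBN 2 and 1 without untreated 3, within the first code range or with the code range as a covariate. Called higher was 1 without BBN 10 or within the first code range. Sele, the adhesion receptor E-selectin, fell from 37, 26.3 and 30.96 CPM to between 0.219 and 2.29 CPM with a median of 1.06 (log2 fold change -4.82 ± 0.46 SE, edgeR adjusted p = 5.49e-05). Of 18 neuronal and Schwann cell genes (median -0.29) 2 rose and 2 fell (11.1% each, near the 12.1% and 10.3% of all tested genes), or 4 fell without BBN 2, and 1 rose when BBN 2, 5 or 7 or untreated 1 or 3 was left out. Gfra3, the artemin receptor of sensory nerves, was at 22.1, 24.1 and 22.4 CPM against 0.273 to 3.39 CPM with a median of 0.932 (log2 fold change -4.31 ± 0.61 SE, edgeR adjusted p = 0.000528). Uchl1, a neuronal ubiquitin hydrolase, was at 12.6, 12.7 and 12.8 CPM against 0.137 to 1.87 CPM with a median of 0.598 (log2 fold change -3.98 ± 0.604 SE, edgeR adjusted p = 0.00082). Mbp, myelin basic protein, whose locus also gives transcripts outside glia, rose by a log2 fold change of 1.34 ± 0.202 (SE, edgeR adjusted p = 0.000776). Adipocyte genes (median -1.27) fell in 5 of 16 (31.2%, against 10.3% of all tested genes), but in 1 without untreated 2, whose summed level of 4112 CPM stood above 1134 and 858 CPM in untreated 1 and 3. Cidea, a lipid droplet protein, rose from 0.564, 0.802 and 0.304 CPM to between 0.949 and 4.44 CPM with a median of 1.88 (log2 fold change 1.997 ± 0.58 SE, edgeR adjusted p = 0.0237), and was not called without untreated 3 (edgeR adjusted p = 0.107). Fabp4, listed with adipocytes and also made by urothelium and vessels, fell from 485, 809 and 385 CPM to between 24.8 and 176 CPM with a median of 58.7 (log2 fold change -2.97 ± 0.53 SE, edgeR adjusted p = 0.00215) and kept its call whichever library was left out, but not with all 9 BBN bladders labelled N (log2 fold change -0.22, edgeR adjusted p = 0.928). Skeletal muscle, kidney tubule and erythroid lists stand for neighbouring tissue or blood and had summed levels of at most 279, 22.1 and 1050.4 CPM. Acta1, an actin of striated muscle, fell from 185, 181 and 235 CPM to between 4.75 and 52.05 CPM with a median of 18.2 (log2 fold change -3.17 ± 0.51 SE, edgeR adjusted p = 0.00119). Kap, an androgen-regulated gene of kidney, went from 4.09, 9.49 and 1.95 CPM to at most 0.205 CPM (log2 fold change -6.24 ± 0.86 SE, edgeR adjusted p = 0.00048). Of 13 skeletal muscle genes (median 1.003) 1 rose and 1 fell (7.69% each, against 12.1% and 10.3% of all tested genes), with 0 called higher without any one untreated bladder, 2 without BBN 9 and 3 without BBN 10, and 2 called lower without BBN 2, 5 or 9 or untreated 2. Despite the positive median, the summed level of this list was lower in BBN bladders, at 19.6 to 204 CPM against 230 to 279 CPM. Of 5 tested kidney tubule genes (median -1.67) 3 fell (60%, against 10.3% of all tested genes) and none rose, or 1 without untreated 2. The summed level of that list was low, at 8.64 to 22.1 CPM in untreated and 2.04 to 6.95 CPM in BBN bladders. Of 5 erythroid genes (median -1.16) none was called, or 2 lower without BBN 5.

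Of 23 glycolysis and hypoxia genes 6 rose (26.1%, against 12.1% of all tested genes) and 1 fell, 2 without BBN 5, with a median of 0.48. Ldha, lactate dehydrogenase A, was at 701, 673 and 683 CPM against 1364 to 2906 CPM with a median of 1551 (log2 fold change 1.37 ± 0.25 SE, edgeR adjusted p = 0.00232). Hk2, an inducible hexokinase, was at 6.48, 7.35 and 10.7 CPM against 20.04 to 50.8 CPM with a median of 42.1 (log2 fold change 2.22 ± 0.32 SE, edgeR adjusted p = 0.000579). Car12, a carbonic anhydrase, was at 16.8, 10.4 and 12.5 CPM against 50.8 to 190.2 CPM with a median of 92.8 (log2 fold change 2.93 ± 0.41 SE, edgeR adjusted p = 0.000489). Of 25 oxidative phosphorylation genes (median 0.25) 1 rose (4%), Ndufa4 (log2 fold change 1.31 ± 0.21 SE, edgeR adjusted p = 0.00127), or 2 without BBN 5, and none fell.

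**Figure D4:**
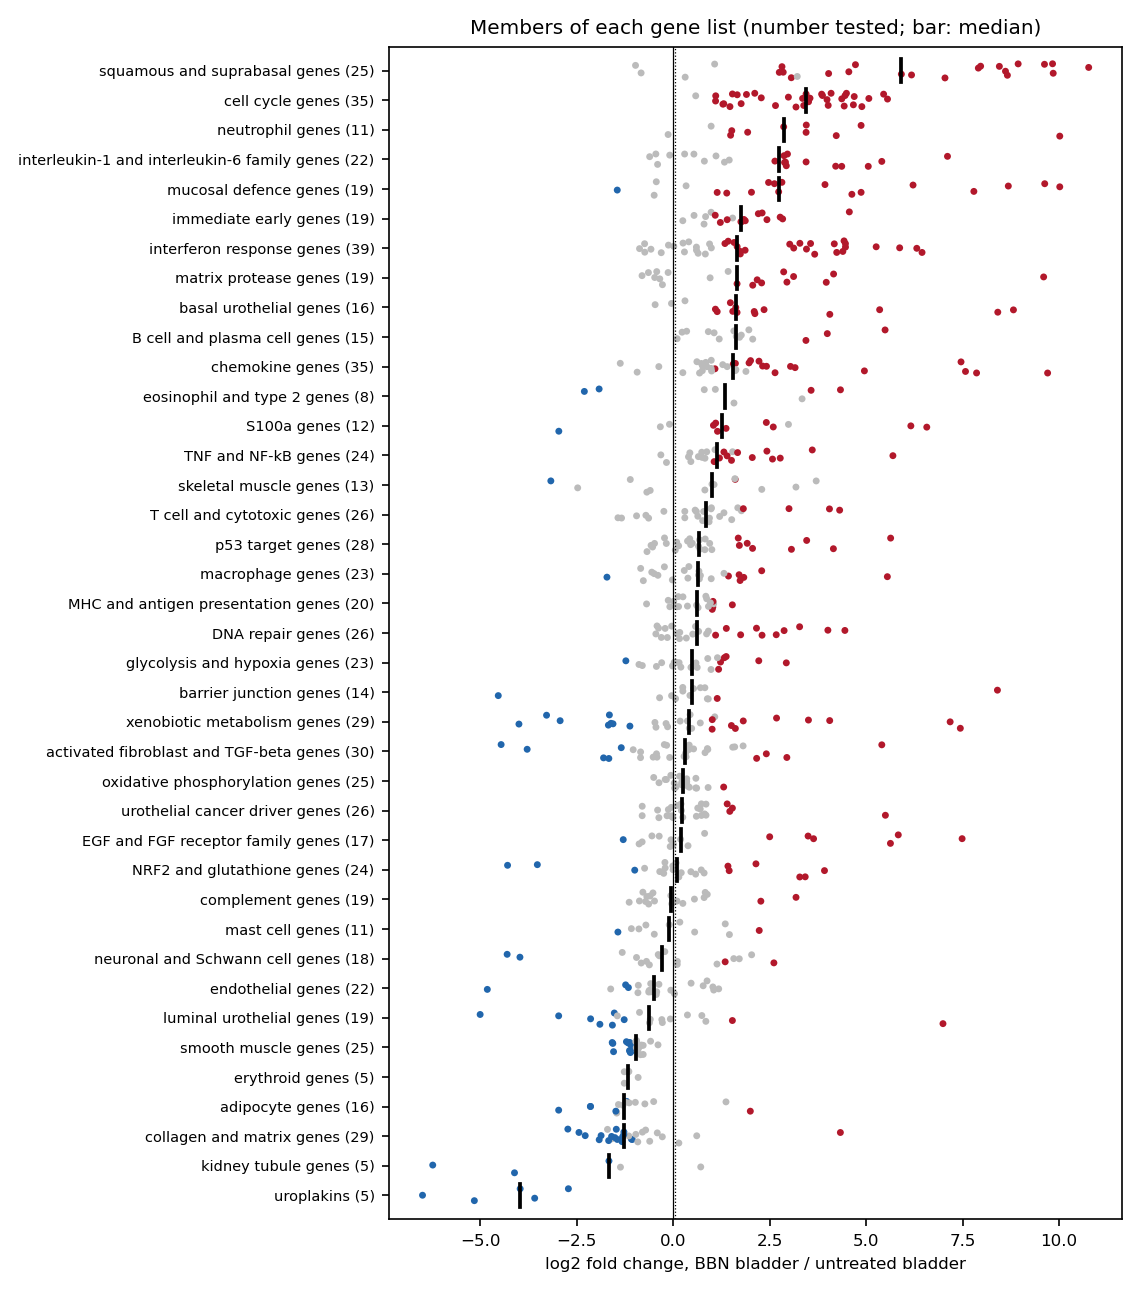
Log2 fold change of each tested member of 39 gene lists, with the number tested in brackets, lists in order of their median (black bar), red points called higher, blue called lower and grey not called. Uroplakins (median -3.97) and squamous genes (median 5.91) mark the ends of the order, the dotted line is the median of all 15599 tested genes, and several lists with a median near 0 hold large changes in both directions.

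The largest decreases of the whole table came from genes of many kinds. Ankfn1 was at 36.6, 38.1 and 40.3 CPM in untreated bladders and at most 0.195 CPM in any BBN bladder, the largest fall among genes with a mean of at least 5 CPM (log2 fold change -8.35 ± 0.37 SE, edgeR adjusted p = 1.49e-06). Dab1, an adaptor of reelin signalling, was at 23.4, 24.2 and 20.99 CPM against 0 to 0.584 CPM with a median of 0.164 (log2 fold change -6.61 ± 0.67 SE, edgeR adjusted p = 7.58e-05). Scube2, a secreted protein that helps release hedgehog ligands, was at 169.6, 161 and 188 CPM against 0.973 to 5.21 CPM with a median of 2.24 (log2 fold change -5.89 ± 0.44 SE, edgeR adjusted p = 1.25e-05). Emid1, Galnt16, Snhg11, Klhl14, Shisa9 and Wfdc15b made up the rest of the 12 with Upk1a and the cytochrome P450 genes, with log2 fold changes from -6.37 to -5.74. Paqr5, a membrane progestin receptor, had the smallest p of all genes called lower. It was at 698, 629.8 and 691 CPM against 25.4 to 40.7 CPM with a median of 29.2 (log2 fold change -4.44 ± 0.17 SE, edgeR adjusted p = 5.65e-07), and the spread among its 6 BBN values was small. Zfp641, a zinc finger gene, and Tsku (tsukushi), a secreted proteoglycan, followed at 47.4, 47.9 and 50.4 CPM against 4.01 to 5.46 CPM with a median of 5.01 (log2 fold change -3.29 ± 0.14 SE, edgeR adjusted p = 1.49e-06) and 152, 156 and 197 CPM against 11.8 to 17.9 CPM with a median of 12.9 (log2 fold change -3.58 ± 0.17 SE, edgeR adjusted p = 2.03e-06). Of genes called higher, the smallest p after Il33 belonged to Upk3bl, a uroplakin-like gene that rose from 1.69, 1.14 and 1.46 CPM to between 78.6 and 151 CPM with a median of 122 (log2 fold change 6.35 ± 0.33 SE, edgeR adjusted p = 4.59e-06) against the direction of the 5 uroplakins. Prss27, a membrane serine protease of stratified epithelium, was at 10.4, 8.22 and 10.3 CPM against 96.1 to 148 CPM with a median of 121 (log2 fold change 3.64 ± 0.2 SE, edgeR adjusted p = 5.51e-06). The tetraspanin Tspan1 was at 1.48, 1.804 and 1.89 CPM against 136 to 331 CPM with a median of 214 (log2 fold change 6.97 ± 0.39 SE, edgeR adjusted p = 5.84e-06).

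BBN bladders also differed among themselves. BBN 7 had the highest summed level of squamous genes, 26525 CPM against 6161 CPM in the lowest BBN bladder, and of basal genes, and the lowest of uroplakins (326 CPM). BBN 10 was lowest for smooth muscle, collagen, endothelial and T cell lists. BBN 2 and BBN 9 were highest for T cell, B cell, MHC and chemokine lists. When BBN 8, 9 and 10 were tested against BBN 2, 5 and 7, a comparison chosen after the values were seen, 1 of 15040 genes was called higher (0.00665%) and 1 lower (0.00665%), at 1200 with an unadjusted p under 0.05. Upk3a was the one called higher in the second range, with a log2 difference of 3.55 ± 0.31 (SE, edgeR adjusted p = 0.0512), and Chit1, a chitinase of macrophages, the one called lower, at 1.61 to 2.72 CPM against 22.9 to 60.98 CPM. Many other described genes were separated by the ranges without being called there. Of 176 described genes tested both over all 6 BBN bladders and within the first code range, 52 did not overlap between the ranges, 31 higher in the first and 21 higher in the second, against 12.3% of all tested genes. Krt13 was at 467 to 1285 CPM in the first range and 101 to 164 CPM in the second, and Krt14, Krt16, Krt6b, Cnfn and Calm4 were also higher in the first. Snx31, Upk1b, Upk3b, Mx1, Ifit1 and Sftpd were higher in the second, as were Clu and Krt18 (edgeR adjusted p = 0.152 and 0.126).

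For 50 of the 176 genes the fold change over untreated bladder moved by over 1.5 times when only BBN 2, 5 and 7 were used, all 50 in the same direction as before and 49 with the same call, Psmb8 being the exception. These libraries are also part of the main fit, and many of the genes were named for large changes in it. Agreement in direction was therefore likely beforehand. The log2 fold change of Upk3a went from -3.97 to -6.61, that of Snx31 from -5.01 to -6.23 and that of Upk3b from -3.59 to -4.74. Krt18 went from -1.58 to -2.62. Increases became smaller for Clu, from 3.18 to 1.82, for Mx1, from 5.87 to 4.79, and for Sftpd, from 9.63 to 8.45. They became larger for Krt13, from 6.99 to 7.76, and for Krt16, from 9.62 to 10.49. What the ranges stand for is not given in the sources used here, and their part in these values was not tested.

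**Figure D5:**
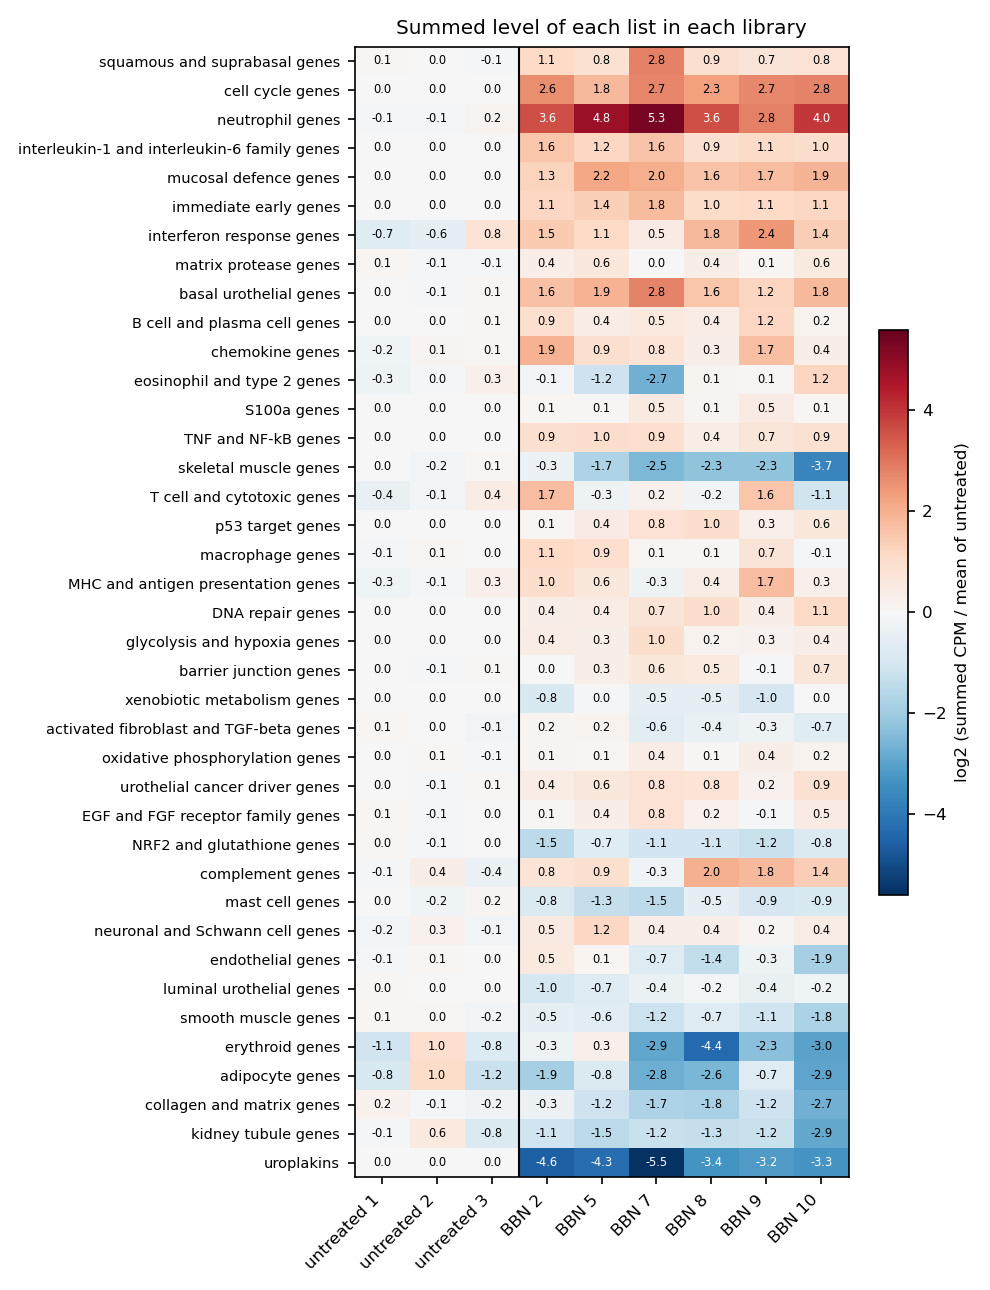
Summed CPM of each of 39 gene lists in each of the 9 libraries as log2 ratio to the mean of the 3 untreated bladders, red above and blue below, with the value written in each field. Uroplakins lie between -5.54 and -3.19 and cell cycle genes between 1.79 and 2.80 in all 6 BBN bladders, while T cell, MHC, macrophage and endothelial lists have BBN bladders on both sides of the untreated mean.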

How the data were processed

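Total RNA from bladders kept in RNAlater was extracted with the miRNeasy kit, and libraries were made with SMARTer HT and Nextera XT, per the labels and methods of the study. The authors deposited 1 table of estimated counts per gene symbol, unnormalized, in which 21.1% of nonzero values are fractional. The genome build was GRCm38. The processing notes name TopHat2 2.1.1 and Cuffdiff 2.2.1, and what each made is not given in the sources used here. The table does not tell strand or shared reads apart, so close copies and overlapping genes are uncertain.

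Groups came from the labels, RIN from the sample sheet. The deposited estimated counts of the 9 libraries (11150685 to 16617435 in total) were rounded to whole numbers, filtered with filterByExpr, scaled by TMM and tested with edgeR 4.0.16 (glmQLFit, glmQLFTest, R 4.3.3) with Benjamini-Hochberg adjustment over all tested genes. Thresholds were those of the study, an adjusted p under 0.1 and a change of 2-fold. The standard error is the absolute log2 fold change divided by the square root of F. Levels are CPM of TMM-scaled libraries. CPM is not divided by gene length, so levels of different genes are not compared. Deposited columns were all mapped to samples. Where a gene had no count in the untreated bladders, its bound was set against 3 counts over the untreated group. With 1 to 3 counts, the ratio of pooled counts has an exact 95% interval. Both cover counting error only. Alternatives used DESeq2 1.42.0 and limma 3.58.1. The test of BBN 8, 9 and 10 against BBN 2, 5 and 7 was added after the values were seen. On data simulated for this comparison with 200 of 15372 genes changed 4-fold, edgeR recovered 78.5% with 12 false calls. The simulation gave both groups the same spread and changed few genes, none of them of low level. The real groups differed in spread and many genes were called, so these rates do not carry over to the real data. No pair of libraries of a group agreed within sampling noise (lowest chi-square per degree of freedom 11.6).

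Genes were named by rule: the 12 largest increases and the 12 largest decreases among called genes with separated groups and a mean of at least 5 CPM, the 5 smallest p in each direction, a fixed set of 30 genes, and in each of 39 gene lists up to 4 called members per direction and the most abundant member. A selection of these is described, some are not reported here, and genes outside the rule are marked as such. The comparison, the gene lists and the rule were chosen with earlier results of these data known. Sequences are RefSeq promoters, and gene positions are of GENCODE vM21.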

Additional observations from a re-analysis of the deposited data

Results flagged for a closer look

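For each gene named in the text, the highest and lowest of the 6 BBN bladders were compared with the nearest other BBN bladder on the log2(CPM + 1) scale. A bladder is listed where its gap to the nearest other took a larger part of the whole range than Dixon's 95% critical value for 6 samples, a limit that chance passes in about 1 of 20 groups. Among 183 genes and 2 measures of the libraries, 11 values stood apart in this way, a number near what that rate gives for 185 checks. BBN 7 was highest for Krt4 (13.4, the next bladder 11.5), for Aqp3 (9.94, next 8.92) and for Hbegf (8.28, next 6.47). BBN 5 was lowest for Il33 (8.69, next 9.13), Areg (5.10, next 6.07), Mki67 (5.11, next 5.90) and Top2a (5.56, next 6.47). BBN 2 was highest for Inhba (3.72, next 2.62), Mpo (1.68, next 0.474) and Ngp (3.58, next 1.12), and BBN 8 for Gata2 (6.95, next 6.06). In Krt4, Hbegf, Inhba, Il33, Areg, Mki67 and Top2a every other BBN bladder was also above the untreated bladders, and in Aqp3 and Gata2 every one was below. Causes were not tested.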

How the results depend on the processing

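With any 1 library left out, 1539 to 1902 genes were called higher and 1408 to 1781 lower. Other fits of the same 9 libraries gave 1727 to 2007 higher and 1440 to 1792 lower. With the 3 N bladders of low RIN added (all 9), 1274 were called higher and 984 lower, and the median log2 fold change of all genes moved to 0.233. The cause was not tested. The share of counts on the 10 most abundant genes differed by -1.75 percentage points within the first range of library codes, where 3 against 3 libraries cannot give an exact permutation p below 0.1. For Krt20 the log2 fold change ran from -0.5582 to 0.1358 when 1 library was left out, and for Cd3e from -0.362 to 0.917, with -0.1827 in limma-trend. Mdm2 had -0.034 and Sprr1a 0.1249 with all 9 N bladders.

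With all 9 N bladders 23 list counts moved by over 1.5 times, each to fewer calls. Counts called higher went from 13 to 4 for basal, 12 to 4 for TNF and NF-kB, 8 to 5 for p53 target, 10 to 4 for xenobiotic, 16 to 10 for chemokine, 13 to 6 for immediate early, 6 to 2 for glycolysis, 4 to 2 for driver, 4 to 0 for MHC and 4 to 2 for activated fibroblast genes, from 2 to 1 for luminal, barrier, eosinophil, complement and neuronal genes, and from 1 to 0 for adipocyte and skeletal muscle genes. Counts called lower went from 12 to 5 for smooth muscle, 5 to 1 for adipocyte, 3 to 0 for kidney tubule and 2 to 0 for eosinophil genes, and from 1 to 0 for mucosal defence and EGF family genes. Within the first code range 4 complement genes were called higher and 3 fibroblast genes lower. With the code range as a covariate 8 collagen and 4 smooth muscle genes were called lower. Eosinophil genes called higher numbered 1 and glycolysis genes called lower 0 in both of these fits, and skeletal muscle genes called higher 2 and 3. Of 162 genes named and called, 153 kept their call whichever library was left out. No paired analysis was possible because BBN and untreated bladders came from different mice and the numbers they share only name mice. Untreated bladders number 3 and lie in 1 range of library codes, so the second range and the treatment cannot be told apart in BBN 8, 9 and 10. Genes with few counts have no firm fold change.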

Other observations

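The 4 other BBN bladders took no part in the comparison, 3 labelled N with RIN under 5 (BBN 1, 3 and 4) and 1 from mouse 6 whose name carries T. Their values are given on the scale of all 13 bladders together, on which the untreated bladders shift slightly. Krt14 was at 437, 254 and 1516 CPM in BBN 1, 3 and 4 and 3444 CPM in the mouse 6 bladder, against 4.61 to 11.3 CPM untreated. Upk1a was at 176, 20.1, 14.02 and 297 CPM, against 3407 to 3613 CPM. Il33 was at 85.1, 146, 121 and 188 CPM, against 8.95 to 11.7 CPM. For these 3 genes all 4 bladders lay on the same side of the untreated ones as the 6 intact BBN bladders. Krt5 did not: it was at 282 and 313 CPM in BBN 1 and BBN 3, below the untreated bladders (376 to 495 CPM), and at 743 and 1066 CPM in BBN 4 and mouse 6. Cdc20 was at 11.6, 8.05 and 5.19 CPM in the bladders of low RIN and 61.5 CPM in mouse 6, against 1.57 to 3.13 CPM untreated and 42.9 to 70.6 CPM in the 6 intact BBN bladders.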
